A study of Homo sapiens with 12 samples.

Results

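Tight and adherens junction genes were followed in KYSE150, a human cell line established from a squamous cell carcinoma of the esophagus. The 10 genes, CLDN1, CLDN4, CLDN7, CLDN12, OCLN, F11R, JAM3, TJP1, CDH1 and CDH3, were taken by symbol from a table of 24302 features. Each symbol was found once. The 12 RNA-seq libraries fall into 4 groups, each of 3. Control cells carried GFP alone, and the remaining groups overexpressed GFP-TFAP2β (called WT here), GFP-TFAP2β-Mut_IDR3 or GFP-TFAP2β-ΔIDR3. TFAP2β belongs to the AP-2 transcription factors, IDR stands for an intrinsically disordered region, and the series describes both IDR3 mutants as deficient in phase separation. The promoter of the constructs, whether cells were cloned and the time of harvest are not given in the sources used here. Nothing in the labels says that the libraries came from separate cultures, so p-values speak for these libraries only, and their spread may be a technical one.

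Tight junctions seal the space between neighbouring epithelial cells near their apical side. Claudins form the strands of the seal, occludin and the junctional adhesion molecules (JAMs) lie in or beside them, and the scaffold protein ZO-1 ties them to actin. Adherens junctions lie just below and are built from classical cadherins, whose tails bind catenins. E-cadherin is the cadherin of most epithelia, and P-cadherin is typical of the basal cells of stratified squamous epithelium.

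Depth lay between 30.7 M and 43.5 M counts a library. The CPM of a gene is its count brought to a common library total, with TMM scaling. TFAP2B was at 0 to 0.279 CPM with GFP and at 232 to 323 CPM with WT. It was at 687 to 732 CPM with Mut_IDR3 and at 632 to 742 CPM with ΔIDR3, so both mutants held more of its RNA than WT. Genes of the mitochondrial genome took 9.92% to 10.7% of counts with GFP, 5.38% to 6.09% with WT, 8.20% to 8.63% with Mut_IDR3 and 7.67% to 7.79% with ΔIDR3. Their part in the results was not tested. The squamous label held up in part. All 8 squamous markers had counts, with KRT5 at 3416 ± 70.3 CPM with GFP, but SOX2 was at 4.98 CPM with GFP and at 0.105 CPM with WT. Summed over their lists, 6 endothelial markers were at 0.774 to 2.21 CPM, with PECAM1 at 0 counts, and 7 fibroblast markers were at 2.61 to 6.56 CPM. The 6 leukocyte markers summed to 49.9 to 102.9 CPM, almost all of it CD68, and PTPRC had 0 counts. In bulk RNA, fewer cells that express a gene and less RNA per cell cannot be told apart.

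**Figure D1:**
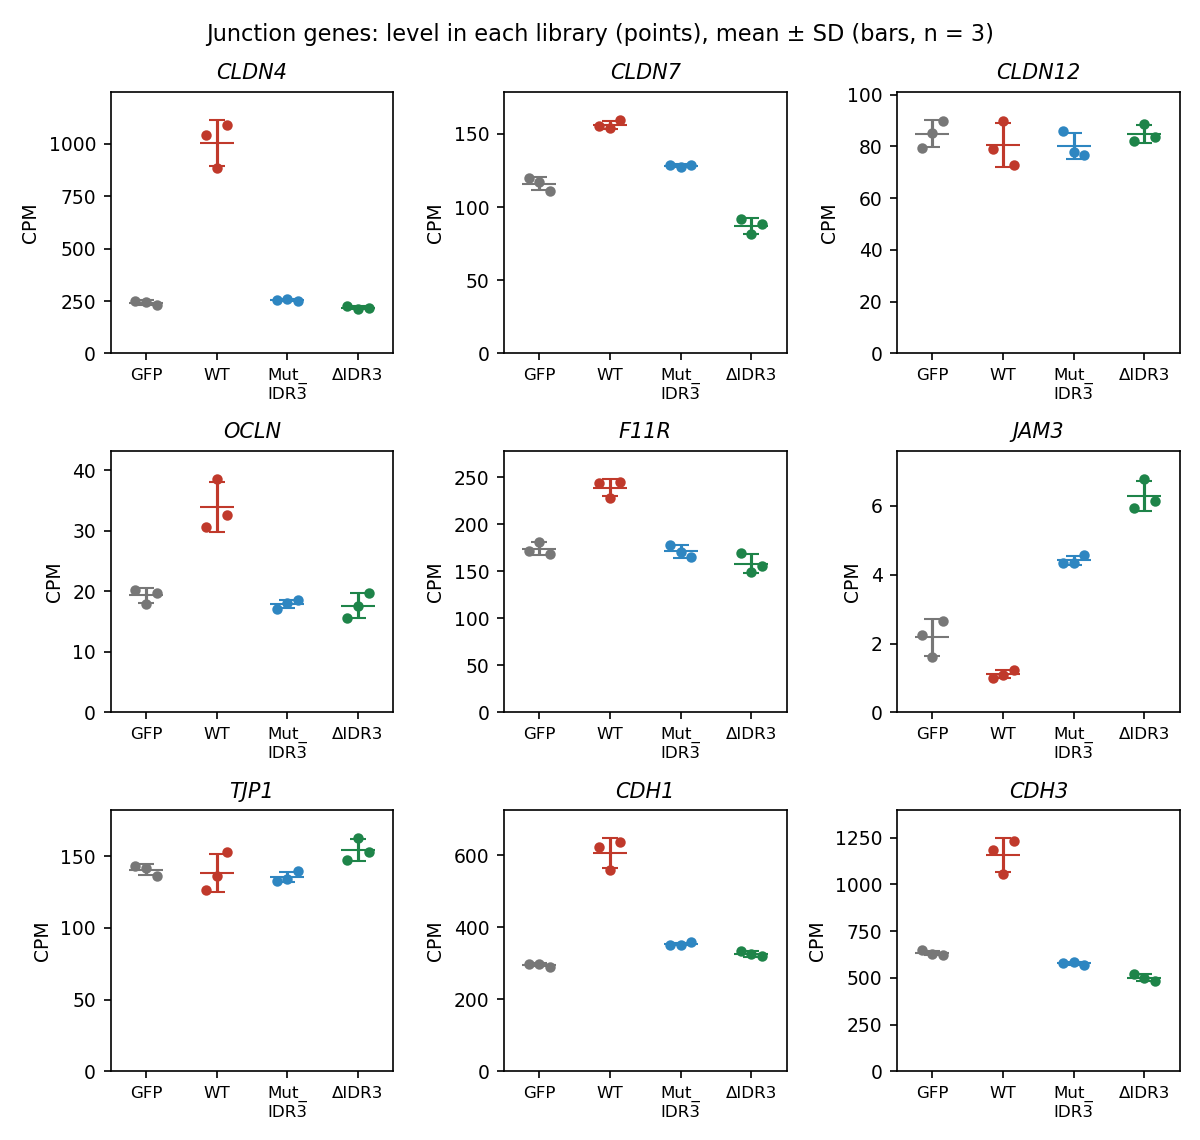
Level of 9 junction genes in each of 12 libraries (points, CPM on a linear axis from 0), with the mean and SD of each group of 3 (bars). CLDN4, CLDN7, OCLN, F11R, CDH1 and CDH3 stand highest in all 3 WT libraries, and JAM3 is lowest there.

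Cadherins and 2 claudins carried most of the junction RNA. With GFP, counts divided by the length of the longest annotated transcript gave 128.4 ± 2.59 CPM per kb for CDH3, 60.7 ± 0.943 for CDH1, 60.4 ± 2.27 for CLDN7 and 58.3 ± 2.70 for CLDN4. The last 3 did not differ beyond their spread. F11R followed at 35.9 ± 1.43, CLDN12 at 23.8 ± 1.48 and TJP1 at 17.7 ± 0.478 CPM per kb, each outside the spread of its neighbours. OCLN was at 3.00 ± 0.193 and JAM3 at 0.557 ± 0.135 CPM per kb. With WT, CLDN4 was at 241.5 ± 26.2 and CDH3 at 235 ± 18.2 CPM per kb, and these leading levels overlapped. The order of the first 4 rests on the transcript used. With the shortest transcript that the annotation tags as principal, 1831 bases in place of 4163 for CLDN4, CLDN4 with GFP was at 132.5 CPM per kb and CLDN7 at 94.5, and OCLN at 11.1. By these transcripts, CLDN4 with WT was at 549 and CDH3 at 234.9 CPM per kb, so their overlap rests on the longest transcript.

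CLDN1, a claudin of stratified epithelia, was close to absent. It had 2 counts with GFP, 2 with WT and 0 with either mutant, in 30.7 M to 43.5 M counts per library. Over each group these allow at most 0.0670 CPM with GFP and 0.0622 CPM with WT, the upper ends of exact 95% Poisson intervals. A count of 0, read as at most 3 counts, allows 0.0268 CPM with Mut_IDR3 and 0.0253 CPM with ΔIDR3. All 4 limits cover counting error only. It did not pass the filter on low counts and was not tested. The other 9 passed it, with at least 36 counts in each library.

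WT was set against GFP to see what unaltered TFAP2β changes. Of the 9 genes tested, 6 rose with WT (CLDN4, CLDN7, OCLN, F11R, CDH1 and CDH3), 1 fell (JAM3) and 2 were not called (CLDN12 and TJP1), by edgeR's quasi-likelihood test at an adjusted p under 0.05. Of all 14792 genes tested, 54.9% were called, 27.7% higher and 27.1% lower. The median log2 fold change was 0.46 over the 9 genes and -0.01 over all genes.

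The change of CLDN4, a sealing claudin, was the largest rise of the 9. The gene lies on chromosome 7 at 73799542 to 73832693 (plus strand, GENCODE 29 on GRCh38, as are the positions below). Its libraries stood at 252, 246 and 230.0 CPM with GFP and at 1041, 883 and 1092 CPM with WT. With Mut_IDR3 they stood at 255, 259 and 249 CPM, and with ΔIDR3 at 227, 212 and 215 CPM. Every WT library was thus above all 9 others, and the ΔIDR3 libraries were below those with GFP. CLDN4 rose 4.15-fold with WT (log2 fold change 2.05, SE 0.07, adjusted p = 1.08e-11), above 98.2% of all genes tested. Against WT it was 3.95-fold lower with Mut_IDR3 (log2 fold change -1.98, adjusted p = 1.63e-11) and 4.61-fold lower with ΔIDR3 (-2.20, adjusted p = 3.78e-12). Against GFP it was not called with Mut_IDR3 (0.07, 95% interval -0.08 to 0.21) nor with ΔIDR3 (-0.15, -0.30 to -0.01, adjusted p = 0.105). The latter passed the threshold with a GC trend removed (-0.28, adjusted p = 5.53e-05) and with upper-quartile scaling (-0.18, adjusted p = 0.0424). It also passed in the 2 groups alone (-0.16, adjusted p = 0.0220) and without WT replicate 2 (-0.15, adjusted p = 0.0170).

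CLDN7, a claudin found along the lateral membrane as well as in the junction, changed less. It lies on chromosome 17 at 7259903 to 7263983, on the minus strand. It was at 111 to 120 CPM with GFP, 154 to 160 with WT, 127 to 129 with Mut_IDR3 and 81.3 to 91.7 with ΔIDR3, and no pair of these groups overlapped. It rose by a log2 fold change of 0.43 with WT (SE 0.05, adjusted p = 6.98e-06) and fell by 0.41 with ΔIDR3 against GFP (adjusted p = 5.14e-05). With Mut_IDR3 against GFP it was not called (0.15, adjusted p = 0.0625). That difference passed with DESeq2 (adjusted p = 0.0474), in the 2 groups alone (0.0390) and without WT replicate 2 (0.0421). It was 0.0 with the GC trend removed. Mut_IDR3 was 0.28 below WT and ΔIDR3 0.84 below WT on the log2 scale, and both differences were called. The CLDN7 transcript is rich in GC (59.6%, against a median of 48.8% over tested genes). With the trend along GC content taken out of each library, its change with WT was 0.12 (adjusted p = 0.0826), and -0.11 for Mut_IDR3 against WT (adjusted p = 0.103). CLDN7 shares 38 bases with ELP5 on the opposite strand, and ELP5 was 0.41 higher with WT (0.16 with the GC trend removed). The strand setting of the counting is not given in the sources used here, and the part of ELP5 reads was not tested.

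CLDN12, a claudin without the usual tail that binds ZO-1, was not called in any of the 6 comparisons. It lies on chromosome 7 at 90383721 to 90513402, on the plus strand. Its libraries spanned 79.5 to 90.0 CPM with GFP, 73.0 to 89.8 with WT, 76.8 to 85.8 with Mut_IDR3 and 82.2 to 88.9 with ΔIDR3, all overlapping. The difference of WT from GFP was -0.08 (95% interval -0.24 to 0.09). Its transcript is the poorest in GC of the 10 (38.1%), and after removal of the GC trend the difference was 0.55 (adjusted p = 1.92e-05). Removal also turned CLDN12 lower than WT, by 0.38 with Mut_IDR3 and by 0.40 with ΔIDR3 (adjusted p = 0.000644 and 0.000289). CLDN12 overlaps GTPBP10 over 7735 bases of the same strand. GTPBP10 fell by 0.89 with WT, and by 0.26 with the GC trend removed. The part of GTPBP10 reads was not tested.

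The makeup of the claudins shifted with WT. CLDN4 made up 40.9 ± 0.890% of the counts per kb of the 4 claudins with GFP and 69.8 ± 2.59% with WT. Its share was 40.6 ± 0.630% with Mut_IDR3 and 43.1 ± 0.446% with ΔIDR3. CLDN7 made up 42.4 ± 0.569% with GFP and 23.6 ± 1.41% with WT, and CLDN12 16.7 ± 1.44% and 6.61 ± 1.20%. These shares do not depend on how libraries are scaled, and no test was run on them. They were taken without removal of the GC trend. That removal moved the change with WT from -0.08 to 0.55 for CLDN12, from 2.05 to 1.69 for CLDN4 and from 0.43 to 0.12 for CLDN7.

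**Figure D2:**
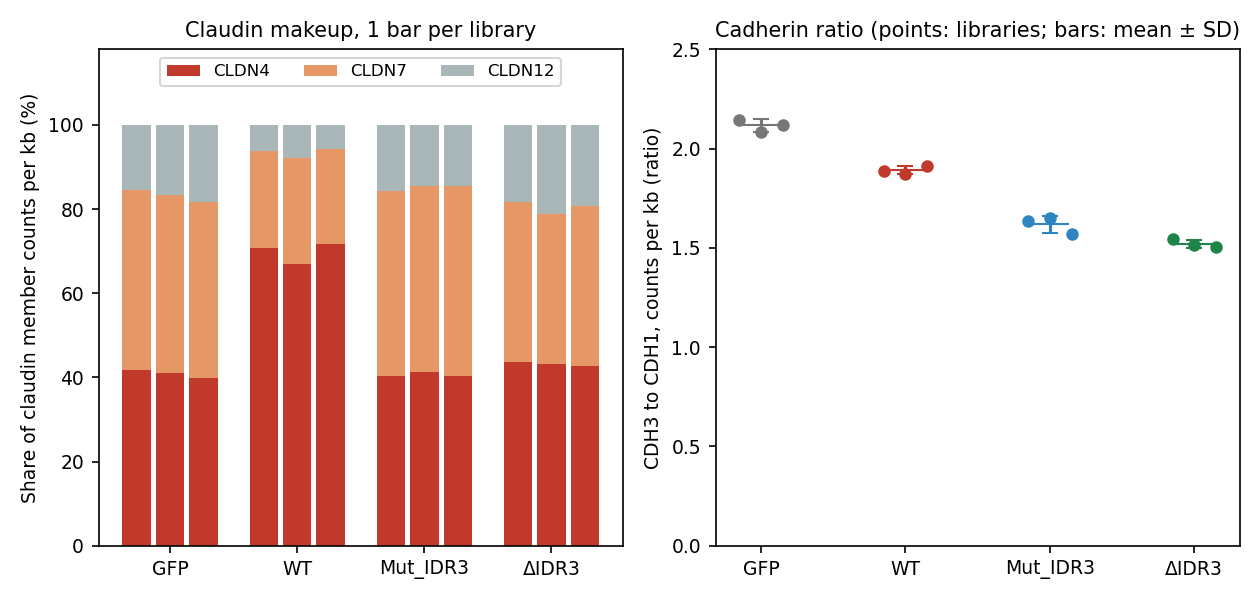
Left, share of CLDN4, CLDN7 and CLDN12 in the counts per kb of the 4 claudins (1 bar per library, percent; CLDN1 is too rare to see). CLDN4 takes 66.9% to 71.7% in the WT libraries and 39.9% to 43.6% in the others. Right, ratio of CDH3 to CDH1 counts per kb in each library (points) with mean and SD (bars), highest with GFP and lowest with ΔIDR3.

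Occludin, a strand protein with 4 membrane passes encoded by OCLN, rose with WT and was not called with either mutant against GFP. OCLN lies on chromosome 5 at 69492292 to 69558104, on the plus strand. Its libraries were at 20.3, 17.9 and 19.8 CPM with GFP, at 30.6, 38.6 and 32.6 with WT, at 17.2, 18.1 and 18.5 with Mut_IDR3, and at 15.6, 17.5 and 19.8 with ΔIDR3. WT libraries were above all others, and the other 3 groups overlapped. The change with WT was 1.75-fold (log2 fold change 0.81, SE 0.10, adjusted p = 1.12e-05) and was larger, 1.31, after removal of the GC trend. Mut_IDR3 was 0.92 and ΔIDR3 0.94 below WT on the log2 scale (adjusted p = 6.63e-06 and 3.07e-06). Reads of OCLN are uncertain, since the annotation holds a pseudogene copy, OCLNP1, that the count table does not list.

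F11R and JAM3 encode JAM-A and JAM-C, adhesion proteins of the immunoglobulin family, and they moved in opposite directions with WT. F11R lies on chromosome 1 at 160995211 to 161021348, on the minus strand. It was at 168 to 182 CPM with GFP, 228 to 245 with WT, 165 to 178 with Mut_IDR3 and 149 to 170 with ΔIDR3, with WT above all others. It rose by a log2 fold change of 0.46 with WT (SE 0.06, adjusted p = 7.70e-06), and was 0.48 below WT with Mut_IDR3 and 0.59 below WT with ΔIDR3 (adjusted p = 9.65e-06 and 7.21e-07). Against GFP it was not called with Mut_IDR3 (-0.02) nor with ΔIDR3 (-0.14, adjusted p = 0.0867), though the latter passed in 5 of 21 settings. These were removal of the GC trend (-0.21, adjusted p = 0.00957), the absence of ΔIDR3 replicate 1 (-0.21, adjusted p = 0.0199), upper-quartile scaling (0.0345), the 1 CPM filter (0.0383) and DESeq2 (0.0448).

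JAM3 was the rarest of the tested genes and the 1 that fell with WT. It lies on chromosome 11 at 134068925 to 134152001, on the plus strand. Its counts were 78, 52 and 115 with GFP, 36, 37 and 51 with WT, 135, 167 and 197 with Mut_IDR3, and 238, 261 and 254 with ΔIDR3. In CPM this was 2.18 ± 0.527, 1.11 ± 0.120, 4.42 ± 0.129 and 6.29 ± 0.438, with no overlap between any pair of groups. JAM3 fell 1.97-fold with WT against GFP (log2 fold change -0.98, SE 0.21, adjusted p = 0.000835). Against GFP it rose with Mut_IDR3 (1.02, SE 0.19, adjusted p = 0.00268) and with ΔIDR3 (1.52, SE 0.19, adjusted p = 4.59e-05). Set against WT, it was 3.98-fold higher with Mut_IDR3 (adjusted p = 2.21e-06) and 5.66-fold higher with ΔIDR3 (adjusted p = 1.45e-07).

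JAM3 shares 1883 bases with NCAPD3, a condensin gene on the opposite strand. NCAPD3 had 124757 counts in all against 1621 for JAM3. NCAPD3 itself was at 274 ± 5.30 CPM with GFP and 207 ± 5.61 CPM with WT. It was at 303 ± 8.53 CPM with Mut_IDR3 and 314 ± 7.95 CPM with ΔIDR3. Its log2 fold changes against GFP were -0.40, 0.15 and 0.20, in the same direction as those of JAM3 and smaller. Without strand, reads of this pair cannot be told apart where they overlap.

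TJP1, the gene of the scaffold ZO-1, was not called in any of the 6 comparisons. It lies on chromosome 15 at 29699367 to 29968865, on the minus strand. It was at 136 to 143 CPM with GFP, 127 to 153 with WT, 133 to 140 with Mut_IDR3 and 147 to 163 with ΔIDR3. Its difference between WT and GFP was -0.02 (95% interval -0.16 to 0.12). ΔIDR3 lay above WT by 0.16 (0.02 to 0.29, adjusted p = 0.0535), and by 0.23 (adjusted p = 0.00353) without WT replicate 3, the highest of its group. With the GC trend removed the difference of ΔIDR3 from WT was 0.01 (adjusted p = 0.907).

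**Figure D3:**
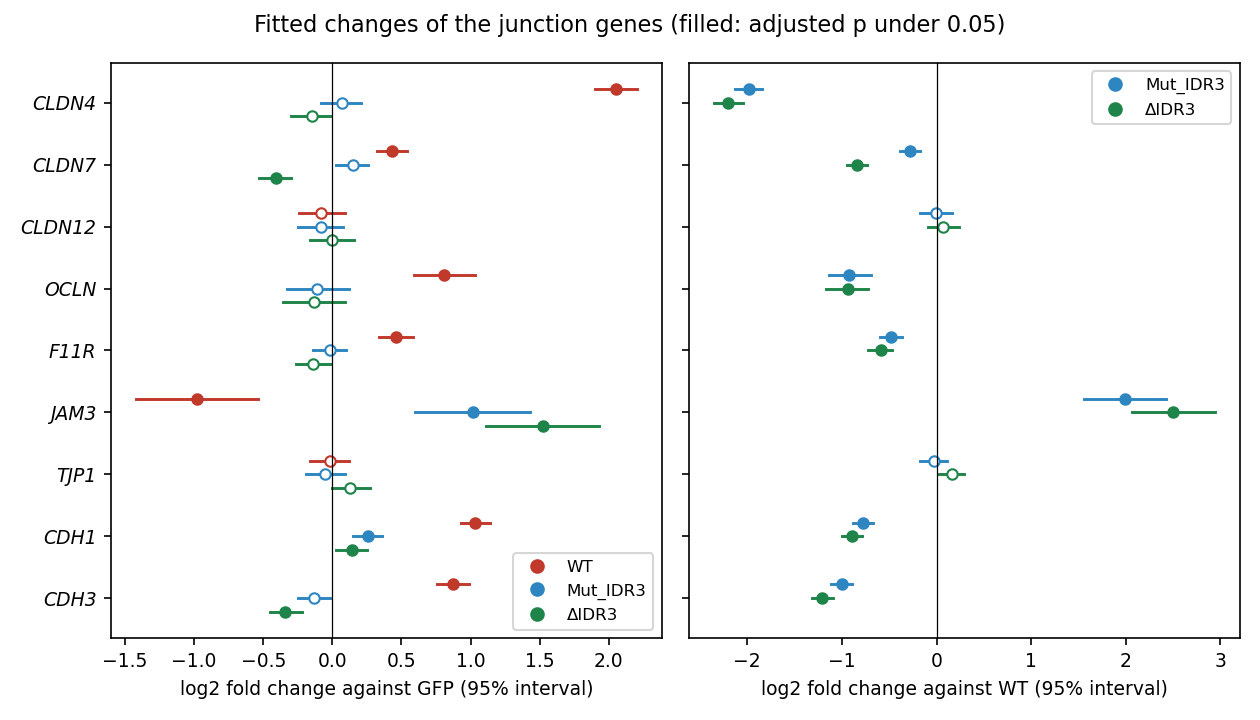
Log2 fold changes with 95% intervals from the fit to all genes, against GFP (left) and against WT (right), for 9 genes. Filled points passed an adjusted p of 0.05. The comparisons in each panel share their reference libraries.

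CDH1, the gene of E-cadherin, was at 299, 299.5 and 291 CPM with GFP and at 624, 560 and 638 with WT. With Mut_IDR3 it was at 352, 352 and 359 CPM, and with ΔIDR3 at 335, 326 and 320 CPM. The 4 groups did not overlap, with GFP lowest and WT highest. CDH1 rose 2.05-fold with WT (log2 fold change 1.03, SE 0.05, adjusted p = 6.12e-10). Relative to WT, it was lower with Mut_IDR3 (log2 fold change -0.78, SE 0.05, adjusted p = 1.66e-08) and with ΔIDR3 (-0.89, adjusted p = 2.98e-09). Relative to GFP it rose with Mut_IDR3 by 0.26 (adjusted p = 0.00317). The rise with ΔIDR3 was 0.14 (adjusted p = 0.0472), a call lost in 16 of 21 alternative settings, such as a model with the replicate block (adjusted p = 0.0713), removal of the GC trend (0.07, adjusted p = 0.335), or the absence of any 1 GFP or ΔIDR3 library (adjusted p from 0.0857 to 0.194).

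CDH3, the gene of P-cadherin, had the most counts of the 10. It was at 647, 629 and 622 CPM with GFP, at 1185, 1057 and 1230 with WT, 580, 586 and 567 with Mut_IDR3, and 522, 498 and 484 with ΔIDR3. Again no groups overlapped, but here both mutants lay below GFP. CDH3 rose 1.83-fold with WT (log2 fold change 0.87, SE 0.05, adjusted p = 8.77e-09) and fell by 0.34 with ΔIDR3 (SE 0.05, adjusted p = 0.000350). With Mut_IDR3 the difference from GFP was -0.13 (adjusted p = 0.0982), and it passed the threshold with the GC trend removed (-0.27, adjusted p = 0.000213). The difference also passed in the 2 groups alone (-0.14, adjusted p = 0.00751) and without WT replicate 2 (-0.13, adjusted p = 0.0218). Against WT CDH3 was lower by 1.00 with Mut_IDR3 and by 1.21 with ΔIDR3 (adjusted p = 2.55e-09 and 2.92e-10).

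CDH3 and CDH1 are neighbours on chromosome 16, on the same strand (GRCh38, 68636189 to 68722616 and 68737225 to 68835548). The end of CDH3 lies 14608 bases before the start of CDH1, with 0 annotated genes wholly in between. Their RNAs did not keep 1 ratio. The ratio of CDH3 to CDH1 counts per kb was 2.12 ± 0.0317 with GFP and 1.89 ± 0.0207 with WT. It was 1.62 ± 0.0432 with Mut_IDR3 and 1.52 ± 0.0211 with ΔIDR3. The libraries of these 4 groups did not overlap. CDH1 thus made up 32.1 ± 0.327% of the pair with GFP and 34.6 ± 0.247% with WT. It made up 38.2 ± 0.635% with Mut_IDR3 and 39.7 ± 0.331% with ΔIDR3.

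The mutants were compared with WT to ask what the IDR3 changes alter. Against WT, 6 of the 9 genes were lower with Mut_IDR3 (CLDN4, CLDN7, OCLN, F11R, CDH1 and CDH3) and 1, JAM3, was higher, where 44.1% of all genes were called, 20.9% lower and 23.2% higher. With ΔIDR3 6 were lower and 1 higher, where 52.3% of all genes were called, 25.0% lower and 27.2% higher. The median of the 9 was -0.48 with Mut_IDR3 and -0.84 with ΔIDR3, against 0.03 over all genes in both. These comparisons use the same WT libraries as that of WT with GFP, so their directions are not independent of it. RNA of TFAP2B itself was higher than with WT, by 1.32 with Mut_IDR3 and by 1.33 with ΔIDR3 on the log2 scale, and its part in these differences was not tested.

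Against GFP, Mut_IDR3 had 2 of the 9 called, CDH1 and JAM3, both higher (all genes: 21.1% called, 11.2% higher and 9.85% lower). With ΔIDR3, CDH1 and JAM3 were higher and CLDN7 and CDH3 lower (all genes: 29.0% called, 15.6% higher and 13.4% lower). The median of the 9 was -0.02 with Mut_IDR3 and -0.13 with ΔIDR3, and -0.01 and -0.02 over all genes. The call of CDH1 with ΔIDR3 was lost in 16 of 21 settings. Removal of the GC trend left 2 higher and 1 lower with Mut_IDR3, where 15.1% of all genes were called. For ΔIDR3 it left 1 higher and 4 lower, where 31.4% of all genes were called.

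Compared directly, 3 of the 9 were higher with Mut_IDR3 than with ΔIDR3 and none was lower, where 10.8% of all genes were called, 5.54% higher and 5.24% lower. CLDN7 differed most, by 0.56 (SE 0.05, adjusted p = 1.75e-05). CDH3 was higher by 0.20 (adjusted p = 0.0260) and CLDN4 by 0.22 (adjusted p = 0.0496). These small differences were not called without Mut_IDR3 replicate 1 (adjusted p = 0.0583 and 0.0976), 2 (0.0930 and 0.148) or 3 (0.0581 and 0.0951), nor without ΔIDR3 replicate 2 (0.0617 and 0.126) or 3 (0.0802 and 0.112). CLDN4 also missed the threshold without GFP replicate 2 (0.0543) or WT replicate 1 (0.0580). With all libraries kept, its call was lost by limma-voom (adjusted p = 0.0642) and with the replicate block (0.0657). JAM3 was lower by 0.51 with Mut_IDR3, with libraries that did not overlap (95% interval -0.90 to -0.11, adjusted p = 0.0958).

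**Figure D4:**
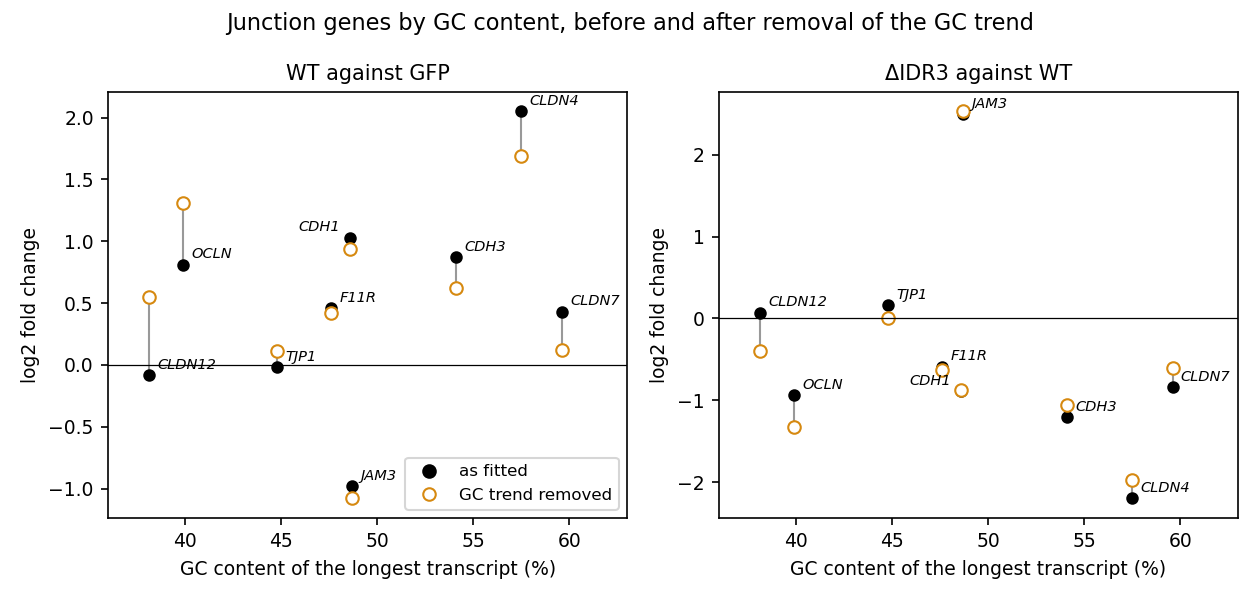
Log2 fold change of 9 genes against the GC content of the longest transcript (percent), for WT against GFP (left) and ΔIDR3 against WT (right), as fitted (black) and with the GC trend removed (open orange). CLDN12, OCLN, CLDN4 and CLDN7, at the ends of the GC range, move most.

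Fold changes between WT and GFP moved with the GC content of transcripts, and the 9 genes lie from 38.1% to 59.6% GC. With the GC trend removed from every library, 6 of the 9 rose and 1 fell with WT, where 48.1% of all genes were called. CLDN4 then changed by 1.69, OCLN by 1.31, CDH1 by 0.94, CDH3 by 0.62, F11R by 0.42 and JAM3 by -1.08, each still called. CLDN12 entered the count of genes that rose and CLDN7 left it.

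Promoter windows were compared for members of the claudin and occludin group. The reason was that, as fitted, CLDN4, CLDN7 and OCLN rose with WT while CLDN12 was not called. Once the GC trend was removed, CLDN7 was not called (0.12) and CLDN12 was higher (0.55), so this contrast depends on the processing. RefSeq windows of 300 bases on GRCh38.p14, from 250 bases before to 50 after a transcript start, were found for 6 of the 10 genes, CLDN1, CLDN4, CLDN7, CLDN12, OCLN and TJP1. The AP-2 motif searched was GCCNNNGGC, which reads the same on both strands. The E-box searched was CACCTG, or CAGGTG on the other strand, to which repressors such as SNAI1 are known to bind in the CDH1 promoter. Capitals mark these matches.
CLDN4, chr7:73830746-73831045, plus strand: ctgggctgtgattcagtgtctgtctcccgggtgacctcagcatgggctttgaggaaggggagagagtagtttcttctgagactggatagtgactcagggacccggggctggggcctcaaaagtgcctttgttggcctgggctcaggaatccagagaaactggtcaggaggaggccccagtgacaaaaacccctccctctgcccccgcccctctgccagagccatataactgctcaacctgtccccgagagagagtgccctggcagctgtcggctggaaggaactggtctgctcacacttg
CLDN7, chr17:7262429-7262728, minus strand: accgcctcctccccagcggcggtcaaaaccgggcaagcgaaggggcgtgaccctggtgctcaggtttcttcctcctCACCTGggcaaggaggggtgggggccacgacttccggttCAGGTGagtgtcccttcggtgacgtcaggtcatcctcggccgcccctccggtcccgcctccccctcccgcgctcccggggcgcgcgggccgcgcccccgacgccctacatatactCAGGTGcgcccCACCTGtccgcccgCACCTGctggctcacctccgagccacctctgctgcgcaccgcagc
CLDN12, chr7:90403211-90403510, plus strand: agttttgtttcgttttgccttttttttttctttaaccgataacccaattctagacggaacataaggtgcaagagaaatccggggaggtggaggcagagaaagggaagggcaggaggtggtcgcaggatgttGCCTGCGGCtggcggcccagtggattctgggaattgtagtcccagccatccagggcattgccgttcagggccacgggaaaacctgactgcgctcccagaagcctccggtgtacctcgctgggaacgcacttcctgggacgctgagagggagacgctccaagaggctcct
OCLN, chr5:69492297-69492596, plus strand: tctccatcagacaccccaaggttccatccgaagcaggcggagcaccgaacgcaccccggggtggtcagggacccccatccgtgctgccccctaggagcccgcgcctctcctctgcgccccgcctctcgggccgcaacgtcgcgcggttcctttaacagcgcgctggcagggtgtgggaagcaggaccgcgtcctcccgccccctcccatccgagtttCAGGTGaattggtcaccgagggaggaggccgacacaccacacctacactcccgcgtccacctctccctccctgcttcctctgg
Of the 6 genes, 1 (CLDN12) had the AP-2 letters in a window, which 23.2% of all 35116 windows hold. The E-box letters were in windows of 3 genes, CLDN7, OCLN and TJP1, and in 20.6% of all windows. CLDN7, OCLN and TJP1 have more than 1 window each and so more chances of a match. Counts of genes can therefore not be set against these shares of windows, for either motif. The CLDN7 window printed holds 5 E-box matches, and its other window holds 0. A second OCLN window, not printed, holds 2. The CLDN4 window holds neither motif, which says only that these letters are not within it.

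Other junction genes were read from lists of the same structures. Of 19 other claudins in the table, 5 had enough counts to be tested, and together the 19 summed to 10.6 to 15.9 CPM in any library, far below CLDN4. CLDN3, also a sealing claudin, rose from 0.561 to 1.70 CPM with WT (log2 fold change 1.61, adjusted p = 0.00739). CLDN9 rose by 0.67, CLDN18 fell by 2.57 from 0.445 CPM, and CLDN15 and CLDN23 were not called (-0.09 and 0.69). The median was 0.67. With the GC trend removed the median was 0.34, CLDN9 was not called (0.34, adjusted p = 0.275) and CLDN15 was lower (-0.41, adjusted p = 0.0183).

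Of 21 other tight junction genes tested, 8 rose with WT, 4 fell and 9 were not called, with a median of 0.18, where 27.7% of all genes rose and 27.1% fell. Those that rose included CGN, for the adaptor cingulin (0.93, adjusted p = 3.12e-08), AMOTL2 (0.72) and LSR, for a protein of the corners where 3 cells meet (0.71). The genes that fell were MPP5 (-1.07), PRKCI (-0.87) and PATJ (-0.76), which encode cell polarity proteins, and CXADR (-0.93), for an adhesion molecule. CRB3 and PARD6A, also genes of polarity proteins, rose (0.78 and 0.60), and PARD3, PARD6B and PARD6G were not called. With the GC trend removed PARD6A was not called (0.27), PARD6B was higher (0.79), and PARD3 and PARD6G were lower (-0.36 and -0.52). Over the 21 genes, 8 were then higher and 8 lower, with a median of -0.04, where 48.1% of all genes were called. Against WT, 7 were lower and 5 higher with Mut_IDR3, and 9 lower and 7 higher with ΔIDR3, where 44.1% and 52.3% of all genes were called. Against GFP, 3 were higher and 4 lower with Mut_IDR3, and 3 higher and 7 lower with ΔIDR3, where 21.1% and 29.0% of all genes were called.

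Of 16 other adherens junction genes tested, 9 rose with WT, 1 fell (LIMA1, -0.43) and 6 were not called, with a median of 0.32, beside the same shares of all genes. With the GC trend removed 10 were higher and 1 lower, with a median of 0.28, where 48.1% of all genes were called. LIMA1 was then not called (0.05, adjusted p = 0.333), NECTIN1 was lower (-0.21, adjusted p = 0.000262) and CTNNB1 higher (0.15, adjusted p = 0.00706). NECTIN2, for an adhesion molecule of adherens junctions, rose from 79.1 to 195 CPM (1.30, adjusted p = 7.44e-09). JUP, for plakoglobin, a catenin that binds cadherin tails, rose from 299.8 to 689 CPM (1.20, adjusted p = 4.88e-09). ZYX rose by 0.85 and CTNNA1, for alpha-catenin, by 0.33. As fitted, CTNNB1 and CTNND1, for beta- and p120-catenin, were not called (-0.09 and -0.08). EPCAM was not called either (-0.01). Against WT, 9 were lower and 1 higher with Mut_IDR3, and 11 lower and 1 higher with ΔIDR3, with medians of -0.34 and -0.31. Of all genes, 44.1% and 52.3% were called in these comparisons, 20.9% and 25.0% lower. Against GFP, 3 were higher and 1 lower with Mut_IDR3, and 3 and 3 with ΔIDR3, where 21.1% and 29.0% of all genes were called. CDH2, the gene of N-cadherin, had 0 counts in all 12 libraries.

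**Figure D5:**
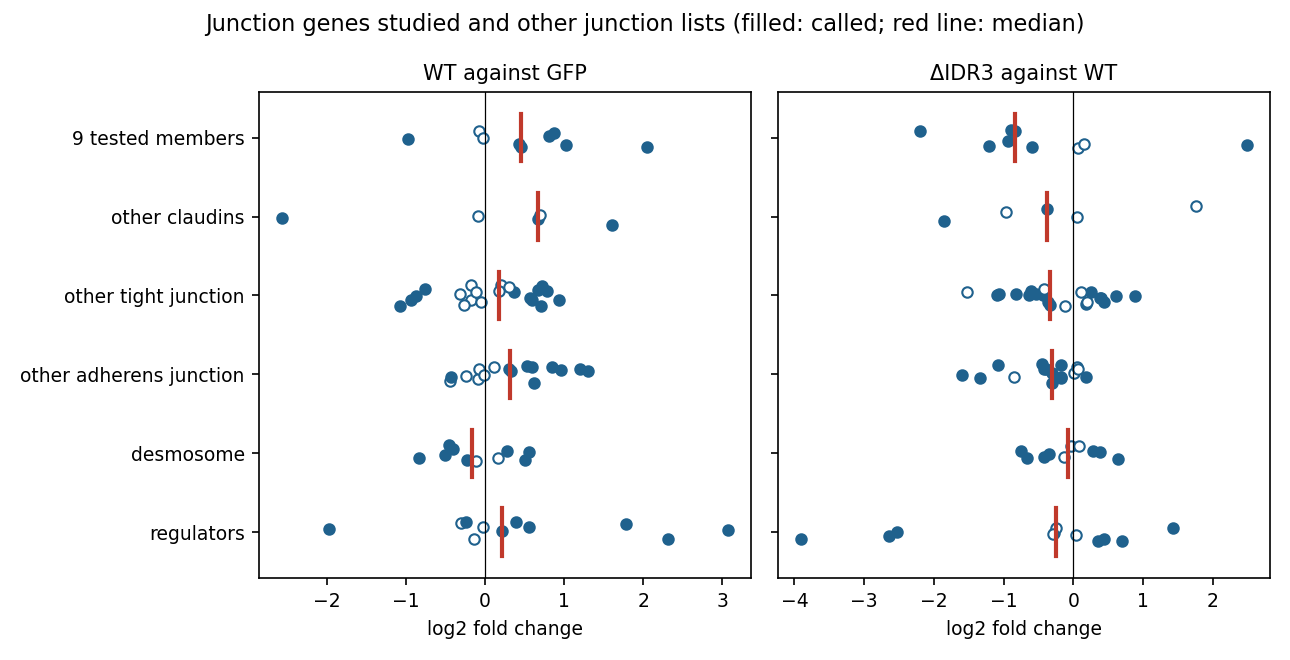
Log2 fold changes of the 9 tested genes and of 5 lists of other genes, WT against GFP (left) and ΔIDR3 against WT (right). Filled points were called, and red lines are medians, 0.46 for the 9 genes with WT and -0.84 for ΔIDR3 against WT.

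Over the 12724 tested genes with Ensembl identifiers, those with the 3 fold changes against GFP closest to the pattern of CLDN4 were N4BP3, GAB2 and HBEGF. Their root mean square differences from it were 0.054, 0.109 and 0.130 on the log2 scale. HBEGF, a ligand of the EGF receptor, was at 2.02 with WT, 0.14 with Mut_IDR3 and 0.06 with ΔIDR3. For CDH1 the closest were PCDHB2, ETV4 and CFAP157 (0.030 to 0.041), for CDH3 TMEM159, UBALD2 and IFI30 (0.042 to 0.045), and for TJP1 UCHL3, STAT6 and DCAF5 (0.006 to 0.019). This is a measure of likeness over 4 groups of libraries and nothing more.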

How the data were processed

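Counts per gene, deposited by the authors, were used as they stand. The submitters' processing notes name HISAT2, StringTie and Trim Galore, and the build GRCh38 (hg38). How reads were counted, with which annotation and strand setting, is not given in the sources used here. Libraries were, per the labels' protocols, made from total RNA with a SMARTer mRNA kit.

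Genes were kept by filterByExpr (14792 of 24302 features), scaled by TMM and tested with edgeR 4.0.16 (quasi-likelihood F test, 12 libraries in 4 groups, R 4.3.3), with Benjamini-Hochberg adjustment over all tested genes. A gene was called at an adjusted p under 0.05. Positions, transcript lengths and GC content came from GENCODE 29 on GRCh38. GC content was known for 12724 tested genes. Its trend, from genes averaging 1 CPM or more in 20 bins, was removed by offsets. The code was tested on simulated counts.

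The members and lists were chosen with earlier results of these data known. Named from each list were up to 4 tested genes with the lowest adjusted p for WT against GFP, and other called or uncalled members as examples, with all members of the set itself. For 4 members the 3 closest patterns are named. SOX2, CDH2, EPCAM, NCAPD3, ELP5, GTPBP10 and some uncalled genes were named after their values were seen. Tried besides were scaling by median ratios or upper quartiles, no filter, 1 CPM in 3 libraries, DESeq2 1.42.0, limma-voom (limma 3.58.1), the 2 groups alone, the replicate block, an adjusted p under 0.01, removal of the GC trend, single libraries left out and counts without length. The shortest principal transcript was added after seeing the data.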

Additional observations from a re-analysis of the deposited data

How the results depend on the processing

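Of 54 results, 9 genes in 6 comparisons, 38 kept their side of the threshold under all 21 settings, and 29 kept their direction as well. Of the 30 that were called, 25 kept both. The calls of CLDN4, OCLN, F11R, JAM3, CDH1 and CDH3 for WT against GFP and for both mutants against WT were among them. The 12 that turned sign were not called. With the GC trend removed, CLDN12 turned to 0.55 for WT against GFP and to -0.40 for ΔIDR3 against WT, both then called. Uncalled on both sides, GC removal turned CLDN12 to 0.17 and 0.15 for Mut_IDR3 and ΔIDR3 against GFP and to 0.02 between the mutants, TJP1 to 0.11 for WT against GFP, and CLDN4 to -0.10 and OCLN to 0.09 for Mut_IDR3 against GFP. With single libraries left out, values that spanned 0 without a call were -0.10 to 0.04 for TJP1, WT against GFP, -0.06 to 0.00 for F11R, Mut_IDR3 against GFP, and -0.06 to 0.03 for CLDN12, ΔIDR3 against GFP. For Mut_IDR3 against WT they were -0.08 to 0.08 for CLDN12 (0.02 with upper-quartile scaling) and -0.09 to 0.04 for TJP1, and between the mutants -0.05 to 0.12 for OCLN. In the 2 groups alone, 4 genes of the set were called for Mut_IDR3 against GFP and 6 between the mutants. Over all genes, the calls were then 4377 and 2290, against 3114 and 1594 in the fit to all 4 groups. At an adjusted p under 0.01, 1 gene of the set was called between the mutants, and 596 genes in all. Over all genes, 1349 were then called for Mut_IDR3 against GFP and 2506 for ΔIDR3 against GFP. With single libraries left out, the calls of the set ranged from 2 to 4 for Mut_IDR3 against GFP and from 1 to 4 between the mutants, and those of all genes from 1566 to 3796 and from 819 to 2265. The lower ends came without GFP replicate 3 (1701) and Mut_IDR3 replicate 2 (1566) for the former, and without Mut_IDR3 replicate 1 (917), 2 (819) or 3 (902) or ΔIDR3 replicate 2 (844) or 3 (948) for the latter. Without WT replicate 2, CLDN7 (0.15, adjusted p = 0.0421) and CDH3 (-0.13, adjusted p = 0.0218) were called for Mut_IDR3 against GFP, CLDN4 (-0.15, adjusted p = 0.0170) for ΔIDR3 against GFP and CDH1 (0.12, adjusted p = 0.0387) between the mutants. F11R was called for ΔIDR3 against GFP without ΔIDR3 replicate 1 (-0.21, adjusted p = 0.0199), and TJP1 between the mutants without WT replicate 3 (-0.19, adjusted p = 0.0263). Upper-quartile scaling moved the higher share of calls between the mutants from 51.4% to 65.3%. The share of CLDN4 among the claudins was 54.7%, 80.8%, 54.9% and 55.9% (GFP, WT, Mut_IDR3, ΔIDR3) without division by length, and 52.7%, 78.4%, 52.1% and 55.6% with the shortest principal transcripts. The cause of other changes was not tested.

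No pairing of the samples by replicate number was seen over all genes, though a batch that touches few genes could be missed. Deviations from group means correlated at -0.068 to 0.076 for the same number and at -0.078 to 0.090 for different numbers. With the replicate block, 7932 genes were called for WT against GFP, and 7, 2, 3, 7, 7 and 2 of the set in the 6 comparisons, where the fit without it gave 7, 2, 4, 7, 7 and 3. JAM3, with 36 to 261 counts, is the least precise of the 9.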

Other observations

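Regulators of junction genes went both ways with WT. Among 11 with enough counts, 6 rose and 2 fell, 3 did not pass the test, and the median was 0.21 (4 higher, 3 lower and 0.05 with the GC trend removed). Of all genes, 54.9% were called, 27.7% higher and 27.1% lower (48.1% called with the GC trend removed). KLF4, an epithelial transcription factor known to bind the CDH1 promoter, rose from 10.2 to 86.0 CPM with WT (log2 fold change 3.08, adjusted p = 1.48e-11 by edgeR's quasi-likelihood test). OVOL1, which restrains mesenchymal genes, rose from 2.39 to 11.8 CPM (2.32, adjusted p = 3.64e-06), and GRHL3, a factor of the epidermal barrier, from 2.15 to 7.40 CPM (1.78, adjusted p = 0.000114). ELF3 fell from 107.9 to 27.5 CPM (-1.97, adjusted p = 4.25e-12). Against WT, 4 were lower and 3 higher with Mut_IDR3, and 3 lower and 4 higher with ΔIDR3, with KLF4 at -2.70 and -2.65. Of all genes, 44.1% and 52.3% were called in these comparisons. GRHL3 was also lower than with GFP in both mutants, by 0.95 with Mut_IDR3 (adjusted p = 0.0421) and by 2.12 with ΔIDR3 (adjusted p = 0.000288). Of the known repressors of CDH1, TWIST1 (0.56, adjusted p = 0.00413) and TCF3 (0.21, adjusted p = 0.0317) rose with WT, and neither was called with the GC trend removed (0.22 and -0.12). SNAI2 was not called with WT (-0.02) but was higher with the GC trend removed (0.37, adjusted p = 0.00620), and it was 0.68 higher with ΔIDR3 against GFP. SNAI1, ZEB1 and ZEB2 had 77, 62 and 7 counts in all and were not tested.

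Desmosome genes, whose junctions anchor keratin filaments, went both ways with WT. Among the 10 tested, PKP1 (0.56), PERP (0.51) and PKP3 (0.28) rose, 5 fell, and DSC2 and DSP did not pass, for a median of -0.17, where 54.9% of all genes were called. The desmosomal cadherin genes DSG2, DSG3 and DSC3 fell by 0.84, 0.46 and 0.40 on the log2 scale, and PKP2 by 0.51. With the GC trend removed, 3 were higher (PKP1, PERP and DSC2, the last at 0.45, adjusted p = 0.00206) and 3 lower (DSG2, PKP2 and PKP4). PKP3 (-0.06), DSG3 (-0.14) and DSC3 (0.10) were then not called. Of all genes, 48.1% were called with that trend removed. With ΔIDR3 against GFP 5 fell and 0 rose, and with Mut_IDR3 3 fell and 1 rose, where 29.0% and 21.1% of all genes were called. Squamous markers went both ways with WT, with 4 of 8 higher and 4 lower. CD68 was the leukocyte gene that rose (0.37, but 0.09 and not called with the GC trend removed), COL1A1 the fibroblast gene (0.85), and CDH5, listed at 0 counts in all WT libraries, the endothelial gene that fell.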
